A study of Mus musculus with 24 samples.

Results

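The dual-specificity MAP kinase phosphatases Dusp1, Dusp2, Dusp4, Dusp5, Dusp6, Dusp7, Dusp10, Dusp14 and Dusp16 were followed in splenic CD4+ T cells during the first day of stimulation through CD3 and CD28. These 9 genes were the rows of the deposited count table whose Ensembl identifiers belong to those symbols, out of 54446 rows in all, of which 31367 had a count and 15325 passed the filter on low counts; all 9 members passed it. The cells came from 3 wild-type (WT) and 3 Aim2-/- mice of the C57BL6 background, labelled WT 1, 3 and 4 and Aim2-/- 1, 2 and 4, and RNA was taken from every mouse at 0 h (labelled control) and after 3, 6 and 24 h with anti-CD3/CD28, which gave 24 libraries in 8 groups of 3. Aim2 encodes a cytosolic sensor of double-stranded DNA, and the Aim2-/- genotype is carried by every cell of the mouse. The cells were enriched from spleen by negative magnetic selection, so that other splenic cells can remain, and the ages and sexes of these mice were not given in the sources used here. The 4 libraries of 1 mouse share their source, and the 3 mice of a genotype were the replicates.

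Antigen receptor signalling in T cells runs in part through the MAP kinases ERK, JNK and p38, which are switched on by phosphorylation of a threonine and a tyrosine in their activation loop. Dual-specificity MAP kinase phosphatases remove both phosphates and so switch the kinases off, and the transcription of several of them is itself switched on by MAP kinase signalling, a textbook negative feedback loop. Dusp1, Dusp2, Dusp4 and Dusp5 are the inducible nuclear members, of which Dusp5 acts on ERK and the other three on more than one MAP kinase. Dusp6 and Dusp7 are cytoplasmic and prefer ERK, Dusp10 and Dusp16 prefer JNK and p38, and Dusp14 is a small atypical member that lacks the kinase-binding domain of the others and is known as a negative regulator of T cell receptor signalling.

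The promoters of Dusp1, Dusp5 and Dusp6 are shown because these 3 genes stand for the 3 courses described below, a steep fall, a fall after 6 h and a steep rise. They were taken from the RefSeq windows of 250 bases before and 50 bases after each gene start in GRCm38.p6, which matched 8 of the 9 members (all but Dusp4), and bases that lie in an annotated exon of the gene were left out, 47 for Dusp1, 36 for Dusp5 and none of the 250 bases before the start of Dusp6. The stretches are on chr17:26508520-26508722 (minus strand), chr19:53528895-53529108 (plus strand) and chr10:99262981-99263230 (plus strand), each written 5′ to 3′ in gene orientation. Capitals mark the cyclic AMP response element (CRE) core TGACGTCA, its shorter form TGACG on either strand, and the CArG box that serum response factor is known to bind.
Dusp1: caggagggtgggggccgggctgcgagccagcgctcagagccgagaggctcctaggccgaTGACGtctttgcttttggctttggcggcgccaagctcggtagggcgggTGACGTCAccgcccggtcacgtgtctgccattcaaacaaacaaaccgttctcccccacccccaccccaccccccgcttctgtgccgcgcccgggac
Dusp5: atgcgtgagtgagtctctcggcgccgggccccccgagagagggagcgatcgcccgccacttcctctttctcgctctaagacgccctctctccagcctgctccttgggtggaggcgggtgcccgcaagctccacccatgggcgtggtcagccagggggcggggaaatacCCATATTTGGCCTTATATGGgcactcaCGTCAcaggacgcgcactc
Dusp6: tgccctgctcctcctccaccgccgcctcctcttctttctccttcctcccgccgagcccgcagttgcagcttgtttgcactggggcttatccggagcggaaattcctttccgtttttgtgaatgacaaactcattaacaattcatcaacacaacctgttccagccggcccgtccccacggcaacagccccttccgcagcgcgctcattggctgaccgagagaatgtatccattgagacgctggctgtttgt
The Dusp1 stretch held 1 CRE core, 143 to 136 bases before the start, and a further TGACG 191 to 187 bases before it. Of all 32851 windows, 1.79% held the CRE core and Dusp1 was the only one of the 8 members to do so, while TGACG, which also lies within the core, was in 20.8% of all windows and in those of Dusp1, Dusp2, Dusp5 and Dusp16. The Dusp5 stretch held 2 CArG boxes side by side, 82 to 73 and 72 to 63 bases before the start, and TGACG on the minus strand at 55 to 51 bases, and 1.63% of all windows and no other member's window held a CArG box. The Dusp6 stretch held none of the capitalised motifs. The NF-kB motif was in 20.7% of windows and in those of Dusp1, Dusp5, Dusp6 and Dusp7. The AP-1 site TGANTCA (7.81% of windows), the EGR site GCGTGGGCG (0.612%), the NFAT core GGAAAA (23.4%) and the ETS site CCGGAAG (8.86%) were in none of the 8 windows, and both strands were searched for every motif. A match is a match of letters and no measurement of binding, and an absent match speaks only of this window.

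The libraries held 19715161 to 21627018 counts, and the lowest count of any member in any library was 58. Levels are given as normalised counts (CPM), that is, counts relative to a library total over the genes tested, scaled by edgeR's TMM factors, and differences as log2 fold changes with their standard error (SE). A difference was called where edgeR's quasi-likelihood test over all 15325 genes gave a Benjamini-Hochberg adjusted p below 0.05. Aim2 itself, the gene named in the genotype, had reads in every Aim2-/- library and went against 1 label: the mouse labelled WT 1 had 21.5 CPM at 0 h, near the 15.7 to 20.1 CPM of the Aim2-/- mice, while the other WT mice had 75.0 and 67.5 CPM, and at 24 h it had 5.57 CPM, where Aim2-/- mice had 5.28 to 7.15 CPM and the other WT mice 34.0 and 38.7 CPM. The main differences between the genotypes are therefore also given without the mouse labelled WT 1. The summed level of 8 CD4+ T cell markers was 4044 to 5563 CPM, so the labelled cell type was present in every library. Sums of markers of several other cells were higher in the libraries labelled Aim2-/-. For basophils and mast cells they ranged over 6.94–16.5 CPM in WT and 45.2–183 CPM in Aim2-/- libraries of all times, with 5 of 5 markers called at 0, 6 and 24 h and 3 of 5 at 3 h. At 0 h the sums were 189–224 against 273–607 CPM for 10 myeloid markers, 35.8–56.1 against 98.6–119 CPM for 5 natural killer cell markers, 11.1–15.5 against 17.8–50.3 CPM for 8 B cell markers and 7.71–71.8 against 21.1–336.6 CPM for 6 erythroid markers, the last pair overlapping. The 2 CD8 markers summed to 7.74 to 15.6 CPM in all libraries without such a difference. The B cell marker Ms4a1 was at 0 counts in 2 libraries. The part of these cells in any genotype difference below was not tested, and in bulk RNA fewer cells of a type and less RNA per cell cannot be told apart.

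Dusp1, the best known inducible nuclear phosphatase of p38, JNK and ERK, was among the most abundant members at 0 h and was lower at each later time sampled. No library was taken between 0 and 3 h, so a brief change there cannot be seen. Dusp1 in mice WT 1, 3 and 4 lay at 311, 262 and 314 CPM at 0 h, at 137, 96.7 and 101 CPM at 3 h, at 52.0, 42.4 and 40.8 CPM at 6 h and at 10.7, 9.30 and 10.3 CPM at 24 h. In mice Aim2-/- 1, 2 and 4 the Dusp1 levels were 485, 369 and 402 CPM, then 164, 138 and 116 CPM, then 73.1, 72.1 and 56.6 CPM and finally 12.7, 10.03 and 12.7 CPM. No 2 successive times overlapped within a genotype. Against 0 h the log2 fold change in WT cells was -1.41 at 3 h (SE 0.15), -2.71 at 6 h (SE 0.16) and -4.87 at 24 h (SE 0.18), the last a level 29.3-fold lower, with an adjusted p of 5.5e-07, 5.5e-11 and 1.1e-14. In Aim2-/- cells it was -1.59 at 3 h, -2.64 at 6 h and -5.15 at 24 h (SE 0.18, adjusted p = 1.1e-14), a level 35.4-fold lower. Each step was called as well, with -1.30 from 3 to 6 h and -2.16 from 6 to 24 h in WT cells and -1.05 and -2.51 in Aim2-/- cells. The gene (ENSMUSG00000024190, chr17:26505590-26562128 in GRCm38, minus strand) overlaps Ergic1 on the opposite strand, which lay at 45.0 to 137 CPM, and whether the counting used strand was not given in the sources used here.

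Dusp2, a nuclear phosphatase of ERK and p38 that was first found as an activation gene of T cells, stayed high at all times (ENSMUSG00000027368, chr2:127336159-127338376, plus strand). Dusp2 in mice WT 1, 3 and 4 lay at 320.0, 289 and 332 CPM at 0 h, at 456, 438 and 251 CPM at 3 h, at 429, 553 and 488 CPM at 6 h and at 288, 287 and 284 CPM at 24 h. The Aim2-/- mice gave 359, 319 and 365 CPM, then 299.7, 328 and 457 CPM, then 377, 404 and 499.7 CPM and then 282, 258 and 286 CPM. At 3 h the libraries spread over a wider range than at any other time, and they overlapped those of 0 h in both genotypes. The rise at 6 h over 0 h was called in WT cells (0.65, SE 0.18, adjusted p = 0.00397) and was no longer called without mouse WT 3 (0.45, adjusted p = 0.112), and in Aim2-/- cells the value was 0.30 (adjusted p = 0.166). From 6 to 24 h Dusp2 fell in both, by 0.78 (adjusted p = 0.00075) in WT cells and by 0.63 (adjusted p = 0.0046) in Aim2-/- cells. At 24 h the difference from 0 h was -0.13 (adjusted p = 0.51) in WT cells and -0.34 (adjusted p = 0.0928) in Aim2-/- cells, and the latter was called with each mouse as a block (-0.33, adjusted p = 0.0445).

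Dusp4, a nuclear phosphatase of ERK and JNK closely related to Dusp1, spread widely between mice (ENSMUSG00000031530, chr8:34807297-34819894, plus strand). Dusp4 in mice WT 1, 3 and 4 lay at 103, 56.5 and 84.5 CPM at 0 h, at 72.8, 49.3 and 56.5 CPM at 3 h, at 97.1, 42.3 and 45.3 CPM at 6 h and at 106, 69.9 and 70.1 CPM at 24 h. The levels in Aim2-/- mice were 163, 117 and 119 CPM, then 104, 74.5 and 73.8 CPM, then 49.9, 61.9 and 45.3 CPM and then 75.0, 93.7 and 75.1 CPM. The mouse labelled WT 1 was the highest WT mouse at every time. In WT cells no difference from 0 h was called, with -0.45, -0.40 and 0.01 at 3, 6 and 24 h (adjusted p of 0.232, 0.238 and 0.968). With each mouse as a block the WT differences at 3 h (-0.43, adjusted p = 0.0261) and 6 h (-0.45, adjusted p = 0.0144) were called, and the one at 6 h also without the mouse labelled WT 1 (-0.69, adjusted p = 0.0154). In Aim2-/- cells Dusp4 fell by 1.34 at 6 h (SE 0.28, adjusted p = 0.00037) and, at 24 h, by 0.71 (adjusted p = 0.0256), the latter no longer called in 5 of 9 fits that left out 1 library or mouse (adjusted p up to 0.216). The 3 h value of -0.66 (adjusted p = 0.072) was called with the block (adjusted p = 0.00112). The block also gave a return between 6 and 24 h, by 0.47 (adjusted p = 0.00968) in WT and 0.64 (adjusted p = 0.00099) in Aim2-/- cells, and a step of -0.67 (adjusted p = 0.00154) from 3 to 6 h in Aim2-/- cells, none of which the fit without the block called.

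Dusp5, the nuclear phosphatase that acts on ERK alone, fell after 6 h (ENSMUSG00000034765, chr19:53529109-53542431, plus strand). Dusp5 in mice WT 1, 3 and 4 lay at 258, 353 and 403 CPM at 0 h, at 296, 355 and 315 CPM at 3 h, at 233, 314 and 331 CPM at 6 h and at 134, 129.5 and 155 CPM at 24 h. In Aim2-/- mice the values were 488, 404 and 504 CPM, then 403, 385 and 543 CPM, then 339, 315 and 410.3 CPM and then 200.4, 142 and 186 CPM. All 24 h libraries lay below all earlier libraries of their genotype. The 24 h difference from 0 h was -1.28 (SE 0.18, adjusted p = 1.5e-06) in WT and -1.40 (SE 0.18, adjusted p = 4.4e-07) in Aim2-/- cells, and most of it came after 6 h, with steps of -1.07 and -1.01. At 3 h the values were -0.07 in both genotypes. At 6 h they were -0.21 (adjusted p = 0.34) in WT cells and -0.39 (adjusted p = 0.0654) in Aim2-/- cells, and all 3 Aim2-/- mice were lower at 6 h than at 0 h. That Aim2-/- value was called with each mouse as a block (adjusted p = 0.00293) and in 7 of 9 other settings in all. The Aim2-/- step from 3 to 6 h (-0.32, adjusted p = 0.195) was called with the block too (adjusted p = 0.0233).

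**Figure D1:**
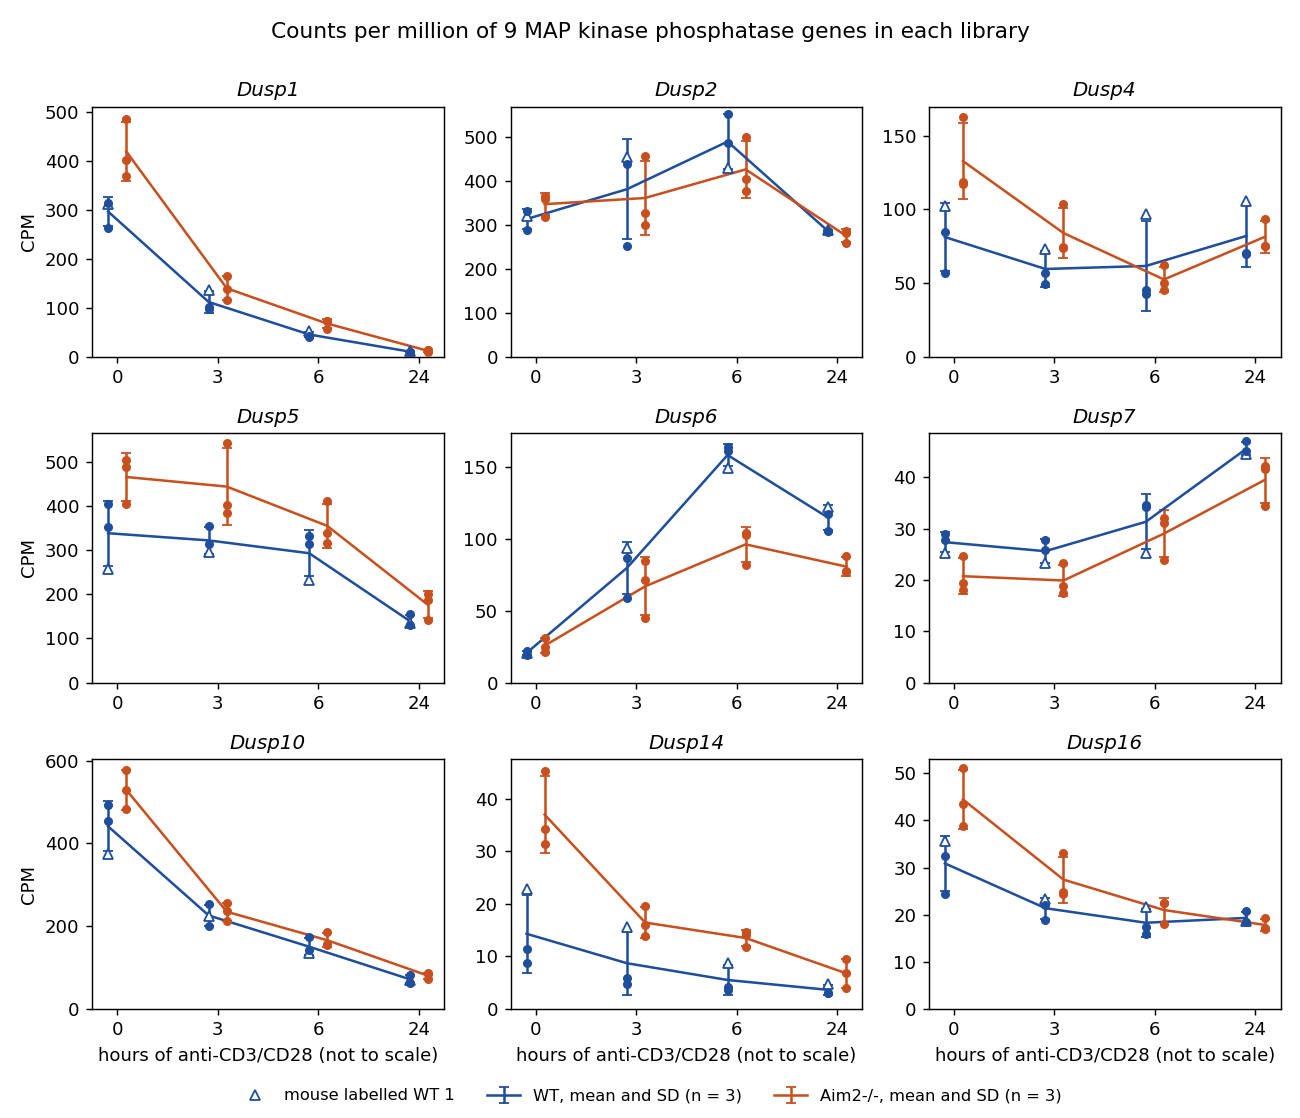
CPM of each of the 9 members, on linear axes from 0, against hours of anti-CD3/CD28 (0, 3, 6 and 24 h, evenly spaced), WT in blue and Aim2-/- in orange, with 1 point for every library, a triangle for the mouse labelled WT 1, and lines and bars for the mean and SD of 3 libraries. Dusp1 and Dusp10 descend at every time, and Dusp6 climbs to 149–164 CPM in WT and 82.0–104 CPM in Aim2-/- libraries at 6 h. The triangle stands above the other WT points for Dusp14 and Dusp4 and below them for Dusp5 at 0 and 6 h.

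Dusp6, the cytoplasmic ERK phosphatase, was the member that rose most, from one of the lowest to one of the higher levels (ENSMUSG00000019960, chr10:99263231-99267489, plus strand). Dusp6 in mice WT 1, 3 and 4 lay at 20.4, 19.2 and 22.3 CPM at 0 h, at 93.6, 86.8 and 59.2 CPM at 3 h, at 149, 164 and 161 CPM at 6 h and at 122, 117 and 105 CPM at 24 h. In the Aim2-/- mice it lay at 31.2, 21.3 and 24.6 CPM, then at 44.9, 71.5 and 84.4 CPM, then at 82.0, 104 and 102 CPM and then at 77.5, 88.0 and 76.6 CPM. Every stimulated library lay above all 0 h libraries of its genotype, and at 6 and 24 h all WT libraries lay above all Aim2-/- libraries. In WT cells the rise over 0 h was 1.95 at 3 h (SE 0.19), 2.94 at 6 h (SE 0.20), which is 7.67-fold, and 2.48 at 24 h (SE 0.20), which is 5.57-fold, with an adjusted p of 1.6e-07, 2.6e-10 and 3.1e-10. In Aim2-/- cells it was 1.38, 1.90 and 1.65, or 2.60-, 3.74- and 3.14-fold, with an adjusted p of 1.3e-05, 7.2e-08 and 1.2e-07. The climb from 3 to 6 h was called in WT (0.99, adjusted p = 0.00051) and in Aim2-/- cells (0.52, adjusted p = 0.0431), the latter lost in 7 of 9 fits that left out 1 library or mouse. The later decline in WT cells, by 0.46 from 6 to 24 h (adjusted p = 0.0341), was likewise lost in 7 of 9 such fits, with an adjusted p of up to 0.128.

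Dusp7, the other cytoplasmic ERK phosphatase, rose late and by less (ENSMUSG00000053716, chr9:106368632-106375724, plus strand). Dusp7 in mice WT 1, 3 and 4 lay at 25.3, 29.0 and 27.8 CPM at 0 h, at 23.2, 27.8 and 25.8 CPM at 3 h, at 25.2, 34.2 and 34.7 CPM at 6 h and at 44.5, 47.1 and 45.2 CPM at 24 h. Aim2-/- cells had 18.1, 24.7 and 19.4 CPM, then 18.9, 23.3 and 17.6 CPM, then 23.9, 32.2 and 31.1 CPM and then 34.4, 42.3 and 41.7 CPM. The 24 h libraries stood above all earlier ones in both genotypes. The rise from 0 to 24 h was 0.74 (adjusted p = 0.00014) in WT and 0.93 (SE 0.15, adjusted p = 1.1e-05) in Aim2-/- cells. At 6 h it was called in Aim2-/- cells (0.49, adjusted p = 0.00923), where 3 of 9 fits that left out a library or mouse lost it, and the WT value was 0.20 (adjusted p = 0.285). The step from 6 to 24 h was called in both, with 0.54 in WT (adjusted p = 0.00346; 0.0522 without the mouse labelled WT 1) and 0.44 in Aim2-/- cells (adjusted p = 0.0146, lost in 4 of 9 such fits).

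Dusp10, a phosphatase of JNK and p38 present in both nucleus and cytoplasm, fell in step with Dusp1 but less steeply (ENSMUSG00000039384, chr1:184013302-184075636, plus strand). Dusp10 in mice WT 1, 3 and 4 lay at 375, 454 and 494 CPM at 0 h, at 224, 201 and 252 CPM at 3 h, at 135, 142 and 173 CPM at 6 h and at 69.7, 62.2 and 81.8 CPM at 24 h. The Aim2-/- mice had 482, 529 and 577 CPM, then 235, 256 and 213 CPM, then 155, 185 and 157 CPM and then 71.8, 83.1 and 85.5 CPM. Each time lay wholly below the one before it in both genotypes. The WT differences from 0 h were -0.97, -1.56 and -2.63, with an adjusted p of 7.0e-06, 4.4e-09 and 6.7e-13, and at 24 h the level was 6.19-fold lower. The Aim2-/- differences were -1.17, -1.68 and -2.72, the last being 6.61-fold lower. The 1700056E22Rik gene on the opposite strand within its bounds lay at 0.608 to 3.59 CPM.

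Dusp16, a phosphatase of JNK and p38 like Dusp10, lay low and fell moderately (ENSMUSG00000030203, chr6:134715468-134792625, minus strand). Dusp16 in mice WT 1, 3 and 4 lay at 35.7, 24.4 and 32.5 CPM at 0 h, at 23.2, 18.8 and 22.0 CPM at 3 h, at 21.6, 15.8 and 17.4 CPM at 6 h and at 18.7, 20.7 and 18.5 CPM at 24 h. In Aim2-/- cells it stood at 51.2, 38.8 and 43.4 CPM, then 33.1, 24.8 and 24.5 CPM, then 22.4, 22.5 and 17.9 CPM and then 17.0, 19.2 and 17.2 CPM. All 0 h libraries exceeded all stimulated ones of the same genotype. The WT difference from 0 h was -0.53 at 3 h, -0.76 at 6 h and -0.68 at 24 h, with an adjusted p of 0.0117, 0.00037 and 0.00063. The 3 h call was lost in 4 of 9 fits, those without mouse WT 1, mouse WT 4, the 0 h library of WT 1 or the 3 h library of WT 3 (adjusted p = 0.0565 to 0.0735). The Aim2-/- values were -0.70 (adjusted p = 0.00169), -1.08 and -1.32. The Aim2-/- step from 3 to 6 h (-0.39, adjusted p = 0.0787) was called with each mouse as a block (-0.38, adjusted p = 0.0221).

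Dusp14, the small atypical phosphatase, was the lowest member per length at 24 h in WT cells and fell over the whole course (ENSMUSG00000018648, chr11:84048041-84069261, minus strand). Dusp14 in mice WT 1, 3 and 4 lay at 22.8, 11.4 and 8.67 CPM at 0 h, at 15.6, 5.81 and 4.63 CPM at 3 h, at 8.73, 4.14 and 3.55 CPM at 6 h and at 4.76, 3.03 and 2.98 CPM at 24 h. In Aim2-/- mice 1, 2 and 4 it lay at 45.4, 31.5 and 34.2 CPM, then at 19.6, 13.8 and 15.9 CPM, then at 14.7, 11.7 and 14.0 CPM and then at 9.49, 3.88 and 6.87 CPM. The mouse labelled WT 1 stood above the other 2 WT mice at all 4 times and lay among the Aim2-/- mice at 3 and 24 h. Within each mouse the level dropped at every step. The steps from 6 to 24 h were -0.61 in WT (adjusted p = 0.251) and -0.996 in Aim2-/- cells (adjusted p = 0.0542). Both were called with each mouse as a block (adjusted p = 0.015 and 1.2e-05). The WT difference from 0 h was -0.72 (SE 0.42, adjusted p = 0.209) at 3 h, which was called with each mouse as a block (-0.78, adjusted p = 0.00051), then -1.38 at 6 h and -1.99 at 24 h, with an adjusted p of 0.0107 and 0.00047. The 6 h call was lost without the 0 h library of WT 1 or the 6 h library of WT 3 or WT 4 (adjusted p = 0.0521 to 0.093). The Aim2-/- values were -1.17, -1.46 and -2.45, with an adjusted p of 0.0366, 0.00606 and 4.1e-05, and the 3 h call was lost in 7 of 9 fits that left out 1 library or mouse, with an adjusted p of up to 0.168.

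**Figure D2:**
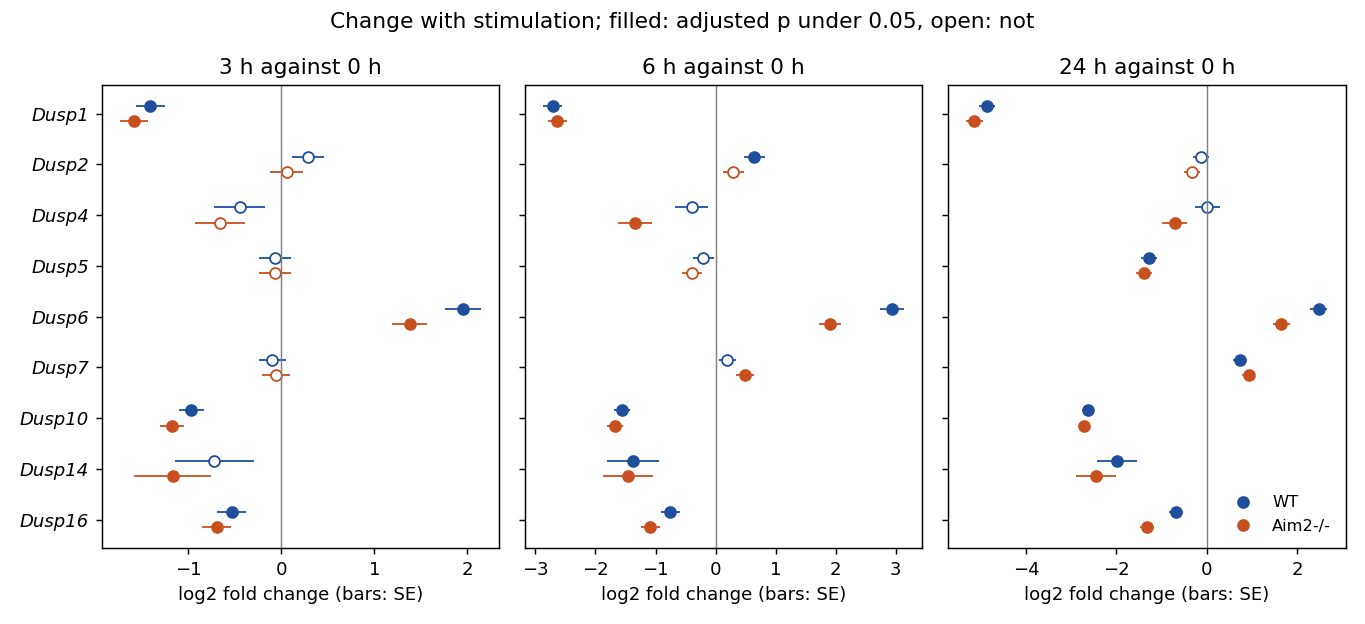
Log2 fold change of each member against 0 h at 3, 6 and 24 h, WT in blue and Aim2-/- in orange, with bars for the SE of the edgeR fit, filled points for an adjusted p under 0.05 and a line at 0. Dusp6 stands above 0 and Dusp1 and Dusp10 below it at every time, while Dusp2, Dusp4, Dusp5 and Dusp7 are open points at 3 h in both genotypes, and the horizontal scale differs between the panels.

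Counted together, at 3 h in WT cells 1 of 9 members was called higher (Dusp6) and 3 lower (Dusp1, Dusp10 and Dusp16), where 16.2% of all genes tested were called higher and 16.4% lower. At 6 h in WT cells 2 were higher (Dusp2 and Dusp6; all genes 26.4%) and 4 lower (Dusp1, Dusp10, Dusp14 and Dusp16; all genes 24.8%), and at 24 h 2 were higher (Dusp6 and Dusp7; all genes 36.6%) and 5 lower (Dusp1, Dusp5, Dusp10, Dusp14 and Dusp16; all genes 34.8%). In Aim2-/- cells 1 was higher (all genes 16.1%) and 4 lower (all genes 14.6%) at 3 h, 2 were higher (all genes 28.5%) and 5 lower (all genes 22.7%) at 6 h, and 2 were higher (all genes 36.8%) and 6 lower (all genes 33.5%) at 24 h. At all 3 times in both genotypes the share of members called higher was below that of all genes and the share called lower above it, a comparison of counts with no test. The median log2 fold change of the members at 24 h was -0.68 in WT and -1.32 in Aim2-/- cells, beside -0.01 and 0.03 over all genes. Between successive times, from 3 to 6 h in WT cells 1 member was called higher (all genes 14.2%) and 2 lower (all genes 11.5%), and from 6 to 24 h 1 was higher (all genes 29.6%) and 5 lower (all genes 28%). In Aim2-/- cells 2 were higher (all genes 13.4%) and 2 lower (all genes 9.89%) from 3 to 6 h, and 1 was higher (all genes 27.4%) and 4 lower (all genes 27%) from 6 to 24 h. With each mouse as a block the first of these steps had 6 members called in WT and 7 in Aim2-/- cells in place of 3 and 4. The second step had 8 and 7 in place of 6 and 5. Shares of all genes called with the block are not given here. More calls over all genes therefore cannot be told apart from more calls among the members alone. The 3 h, 6 h and 24 h comparisons of a genotype share their 0 h libraries. Scaling by library totals alone moved the median of all genes at 3 h by 0.107 in WT and 0.116 in Aim2-/- cells and the share of calls that were higher (49.6% and 52.4%) to 64.9% and 69.3%, and with it Dusp16 in WT cells (adjusted p = 0.0584) and Dusp14 in Aim2-/- cells (adjusted p = 0.0699) were no longer called at 3 h. At 6 h in Aim2-/- cells that scaling moved the median by 0.120.

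Levels can be compared between members only per length of transcript, and per kilobase of the longest annotated transcript Dusp2 had the highest mean at all times in both genotypes, although at 0 h in Aim2-/- cells it overlapped Dusp10 and came after Dusp5 and Dusp10 when merged exon length was used, and at 3 h in Aim2-/- cells it overlapped Dusp5. In WT cells at 0 h the mean was 194 CPM per kilobase for Dusp2, 158 for Dusp10, 137 for Dusp5 and 128 for Dusp1, then 29.6 for Dusp4, 9.09 for Dusp14, 8.52 for Dusp7, 7.37 for Dusp6 and 6.05 for Dusp16. Of these neighbours, Dusp10, Dusp5 and Dusp1 overlapped one with the next across the 3 mice, as did Dusp14, Dusp7, Dusp6 and Dusp16. At 24 h Dusp2 lay at 177, Dusp5 at 56.4, Dusp6 at 41.0, Dusp4 at 29.9, Dusp10 at 25.5, Dusp7 at 14.2, Dusp1 at 4.37, Dusp16 at 3.78 and Dusp14 at 2.29 CPM per kilobase, with Dusp6, Dusp4 and Dusp10 overlapping in turn and Dusp1 overlapping Dusp16. Dusp6 thus moved from the eighth to the third place and Dusp1 from the fourth to the seventh. The sum over the 9 members in WT cells was 677, 563, 591 and 354 CPM per kilobase at 0, 3, 6 and 24 h, and in Aim2-/- cells 870.2, 624, 571 and 354. The cytoplasmic ERK phosphatases Dusp6 and Dusp7 made up 2.25% to 2.46% of that sum in the WT mice at 0 h, 11.02% to 11.4% at 6 h and 14.6% to 16.4% at 24 h, and in the Aim2-/- mice 1.65% to 1.92%, 6.99% to 8.49% and 10.6% to 13.3%. The JNK and p38 phosphatases Dusp10 and Dusp16 held 21.9–25.9% at 0 h and 7.66–9.28% at 24 h in the WT mice, and 19.9–24.8% and 8.04–9.97% in the Aim2-/- mice.

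**Figure D3:**
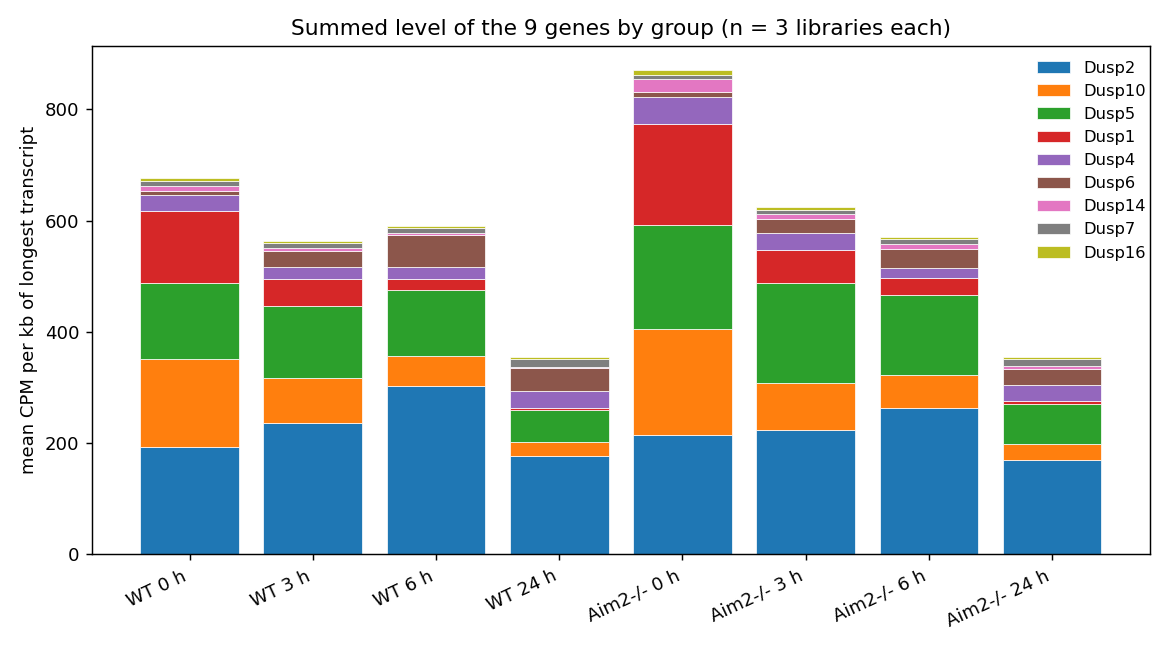
Mean CPM per kilobase of longest transcript of the 9 members, stacked in 1 bar for each of the 8 groups of 3 libraries. The bars go from 677 (WT) and 870.2 (Aim2-/-) at 0 h to 354 at 24 h, the Dusp1 and Dusp10 segments shrink with time, and the Dusp6 segment is widest at 6 h in WT cells.

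Between the genotypes, Dusp6 was lower and Dusp1 and Dusp14 were higher in Aim2-/- than in WT cells at 6 h, and no member was called at the other times. At 6 h Dusp6 differed by -0.72 (SE 0.18, adjusted p = 0.0172), Dusp1 by 0.58 (SE 0.15, adjusted p = 0.0205) and Dusp14 by 1.29 (SE 0.43, adjusted p = 0.0467). The 3 libraries of each genotype did not overlap for these 3 members, which was so for 35.6% of all genes, and 3 of 9 members called compares with 15.8% of all genes. Without the mouse labelled WT 1 the 3 values were -0.76 (adjusted p = 0.0316), 0.69 (adjusted p = 0.016) and 1.80 (adjusted p = 0.00318). At 6 h the marker sums were 186–213 against 236–420.3 CPM for myeloid, 42.4–56.8 against 71.5–89.3 CPM for natural killer, 7.79–13.1 against 17.9–52.7 CPM for B and 9.20–16.5 against 70.7–145 CPM for basophil and mast cells, and their part was not tested. Of these markers, 1 myeloid, 0 natural killer, 2 B cell and 5 basophil and mast cell markers were called at 6 h. The natural killer sums were again mostly Eomes, with means of 40.3 CPM in WT and 67.4 CPM in Aim2-/- libraries. Mouse Aim2-/- 1 had the highest myeloid, B, erythroid, and basophil and mast cell sums at 0 and 6 h, and without it the 3 differences were -0.61 (adjusted p = 0.045), 0.52 (adjusted p = 0.0828) and 1.23 (adjusted p = 0.146). Over the 12 fits that left out 1 mouse or 1 of the 6 h libraries, the call of Dusp6 was lost in 6 (without mouse Aim2-/- 4, WT 3 or WT 4 or the 6 h library of Aim2-/- 1, WT 3 or WT 4, adjusted p = 0.0504 to 0.116). That of Dusp1 was lost in 6 (without mouse or 6 h library Aim2-/- 1, WT 3 or WT 4, adjusted p = 0.0785 to 0.138) and that of Dusp14 in 8 (without mouse or 6 h library Aim2-/- 1, Aim2-/- 4, WT 3 or WT 4, adjusted p = 0.0971 to 0.188). An exact two-sided permutation test of 3 against 3 mice cannot go below p = 0.1, which it gave for each of these 3 members.

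At 0 h 6 of the 9 members did not overlap between the genotypes (Dusp1, Dusp4, Dusp5, Dusp14 and Dusp16 higher and Dusp7 lower in Aim2-/- cells), beside 28.5% of all genes, and none was called, beside 5.23% of all genes. All 6 had an unadjusted p under 0.05 in edgeR, as did 3649 of all 15325 genes. Both DESeq2 and limma-voom called 3 members, and their shares of all genes are not given here. The values were 0.50 for Dusp1 (SE 0.15, adjusted p = 0.0546), 1.37 for Dusp14 (SE 0.42, adjusted p = 0.0576), 0.53 for Dusp16 (SE 0.15, adjusted p = 0.0512), 0.71 for Dusp4 (adjusted p = 0.12), 0.46 for Dusp5 (adjusted p = 0.114) and -0.40 for Dusp7 (adjusted p = 0.108). Without the mouse labelled WT 1, 4 of them were called, with 1.88 for Dusp14 (adjusted p = 0.00145), 0.91 for Dusp4 (adjusted p = 0.0145), 0.64 for Dusp16 (adjusted p = 0.0345) and 0.54 for Dusp1 (adjusted p = 0.0483), while Dusp5 was at 0.30 (adjusted p = 0.306) and Dusp7 at -0.45 (adjusted p = 0.0931). Mouse Aim2-/- 1 had the highest level of Dusp1, Dusp4, Dusp6, Dusp14 and Dusp16 of all 6 mice at 0 h, and without it the values were 0.39 for Dusp1 (adjusted p = 0.247), 1.20 for Dusp14 (adjusted p = 0.236), 0.42 for Dusp16 (adjusted p = 0.23) and 0.54 for Dusp4 (adjusted p = 0.426). The median over the members was 0.46, beside -0.01 over all genes. Shares of all genes called in the fits that left out a mouse are not given here.

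At 3 h no member was called, beside 0.294% of all genes, although 5 had an unadjusted p under 0.05 in edgeR, as did 2350 of all 15325 genes. Neither DESeq2 nor limma-voom called a member there. Dusp4, Dusp5 and Dusp16 did not overlap between the genotypes (15.1% of all genes). Dusp14 differed by 0.92 (adjusted p = 0.305), and by 1.65 (adjusted p = 0.00638) without the mouse labelled WT 1. At 24 h no member was called either, beside 0.666% of all genes, and none was called by DESeq2 or limma-voom. In edgeR 1 member and 3134 of all 15325 genes had an unadjusted p under 0.05. Dusp6 (-0.51, adjusted p = 0.141) and Dusp7 did not overlap there (21.3% of all genes), and without the mouse labelled WT 1 Dusp6 was at -0.46 (adjusted p = 0.258). Dusp14 differed by 0.91 (adjusted p = 0.257), by 1.17 (adjusted p = 0.0726) without that mouse and by 0.58 (adjusted p = 0.783) without mouse Aim2-/- 1.

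**Figure D4:**
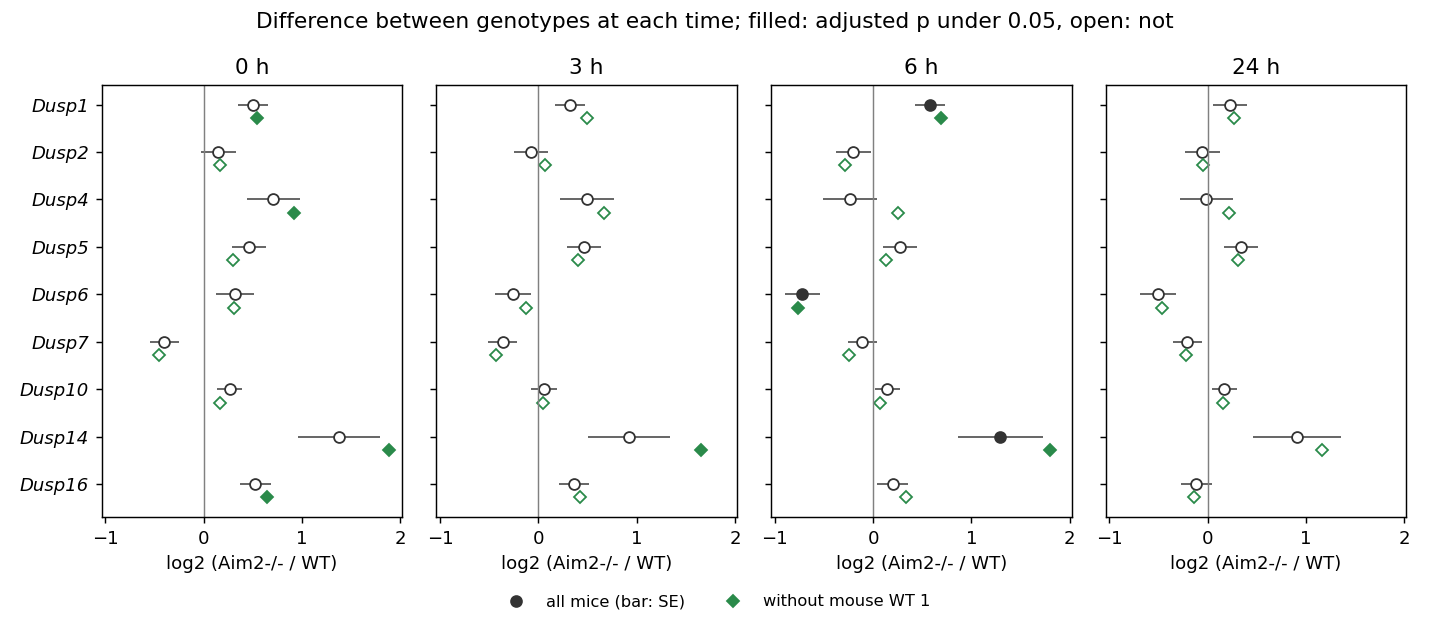
Log2 ratio of Aim2-/- to WT for each member at 0, 3, 6 and 24 h, as circles with SE bars for all mice and as green diamonds without the mouse labelled WT 1, filled where the adjusted p was under 0.05, with a line at 0. At 6 h Dusp6 lies below 0 and Dusp1 and Dusp14 above it in both fits, and the Dusp14 diamond lies to the right of its circle at every time.

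The difference in response was tested by an interaction term for genotype and time, and no member was called at 3, 6 or 24 h, beside 0%, 0.0261% and 0% of all genes. At an unadjusted p under 0.05 in edgeR there were 1, 2 and 2 members, beside 653, 2019 and 1825 of all 15325 genes. DESeq2 called 0, 1 and 0 members and limma-voom none. The lowest values at 6 and 24 h were those of Dusp6. Relative to its own 0 h library, Dusp6 at 6 h stood 7.34-, 8.55- and 7.23-fold higher in mice WT 1, 3 and 4 and 2.63-, 4.89- and 4.16-fold higher in mice Aim2-/- 1, 2 and 4, and at 24 h 5.99-, 6.10- and 4.73-fold against 2.48-, 4.14- and 3.11-fold. The genotypes did not overlap in these ratios at either time, and the share of all genes for which that holds is not given here. At 3 h the ratios were 4.60, 4.52 and 2.65 against 1.44, 3.36 and 3.43 and overlapped. The interaction of Dusp6 at 6 h was -1.04 (SE 0.26, adjusted p = 0.091; -1.07 and 0.186 without the mouse labelled WT 1), that at 24 h was -0.83 (adjusted p = 0.219), and the 6 h value was called with each mouse as a block (-1.05, adjusted p = 0.0208). Dusp4 at 6 h stood at 0.946, 0.749 and 0.536 of its 0 h level in the WT mice and at 0.307, 0.530 and 0.381 in the Aim2-/- mice, an interaction of -0.94 (SE 0.39, adjusted p = 0.29), which was called with the block (-0.89, adjusted p = 0.0235) and was -0.66 (adjusted p = 0.379) without the mouse labelled WT 1. With the 4 libraries of each mouse summed, which leaves 3 against 3 mice, no member was called, beside 0.0117% of 17163 genes. For these sums 5 members had an unadjusted p under 0.05 in edgeR, as did 4004 of the 17163 genes, and DESeq2 called 4 members and limma-voom none. The shares of all genes called by DESeq2 and limma-voom, for the sums and for the interaction, are not given here. Summed Dusp6 was 98.5, 95.1 and 85.0 CPM in the WT group and 61.6, 71.5 and 72.5 CPM in the other (-0.46, SE 0.09, adjusted p = 0.116; -0.43 and 0.105 without the mouse labelled WT 1), and summed Dusp14 differed by 1.22 (adjusted p = 0.144) and by 1.76 (adjusted p = 0.0196) without the mouse labelled WT 1.

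The MAP kinase genes around the members moved in both directions, and their counts stand beside the shares of all genes called at 6 h, 26.4% higher and 24.8% lower in WT and 28.5% and 22.7% in Aim2-/- cells, with no test between a list and all genes. At 6 h in WT cells 3 of 6 Sprouty and Spred genes, feedback inhibitors of the RAS-ERK route, were called higher and none lower, and in Aim2-/- cells 3 were higher and 1 lower. Spry1 rose by 2.96 in WT and 1.90 in Aim2-/- cells and Spred1 by 2.30 and 1.46, with mean Spred1 levels of 10.8 CPM at 0 h and 53.6 CPM at 6 h in WT and 12.5 and 34.4 CPM in Aim2-/- cells. Of 14 transcripts known to be induced by ERK, 7 were higher and 2 lower in WT and 6 higher and 2 lower in Aim2-/- cells, among them the AP-1 subunit Fosl1 (5.93 in WT, 4.28 in Aim2-/-), the growth regulator Myc (3.22 and 2.40) and the zinc finger factor Egr1 (3.05 and 2.42). Between the genotypes at 6 h, 8.78% of all genes were called higher and 7.01% lower in Aim2-/- cells. Of the 6 Sprouty and Spred genes 2 were lower there, Spred1 (-0.64, adjusted p = 0.0121) and Spry4 (-1.19, adjusted p = 0.0486). Of the 14 ERK-induced transcripts 5 were lower, Egr1 (-0.68, adjusted p = 0.0145), Egr3 (-1.08, adjusted p = 0.0116), Fos (-0.48, adjusted p = 0.0247), Myc (-0.59, adjusted p = 0.0405) and Srf (-0.37, adjusted p = 0.0324). In the same list 2 were higher, Ier3 and Ccnd1, and 7 were not called. Without the mouse labelled WT 1 the calls of Spry4 (-1.13, adjusted p = 0.0925), Myc (-0.69, adjusted p = 0.0504), Srf (-0.38, adjusted p = 0.0757) and Ier3 (0.92 in place of 1.12, adjusted p = 0.0736) were lost.

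Of 9 MAP kinases tested, 3 were higher and 2 lower at 6 h in WT cells and 3 higher and 3 lower in Aim2-/- cells, with Mapk14, which encodes p38 alpha, at -1.04 and -0.95. Of 16 RAS, RAF and MAP2K genes 3 were higher and 5 lower in WT and 4 higher and 5 lower in Aim2-/- cells, with the p38 activator Map2k3 at 1.55 and 0.83, the kinase Braf at -1.58 and -1.76 and the RAS exchange factor Sos1 at -0.93 and -1.002. Both tyrosine phosphatases of MAP kinases that were tested changed in both genotypes, with Ptpn7 at 1.18 and 0.79 and Ptpn5 at -0.64 and -0.82. Of 13 scaffolds and adaptors 3 were higher and 4 lower in WT and 3 higher and 5 lower in Aim2-/- cells, among them Gadd45g at 2.57 and 2.16. Of 12 other dual-specificity phosphatases tested, 1 was higher and 4 lower in WT and 4 were higher and 4 lower in Aim2-/- cells at 6 h. Dusp8, a JNK and p38 phosphatase, stood at -1.99 and -1.95, Dusp22, an atypical phosphatase of T cell receptor signalling, at 1.27 and 1.44, and the pseudophosphatase Styx at -0.94 and -0.53. Between the genotypes at 6 h, where 8.78% of all genes were called higher and 7.01% lower, Dusp3 and Dusp19 of these 12 were called higher in Aim2-/- cells. Of the 9 MAP kinases Mapk3 was higher and Mapk6 lower, and of the 2 tyrosine phosphatases Ptpn5 was higher. Rasgrp1 of the 16 RAS, RAF and MAP2K genes and Tab3 and Map3k7 of the 13 scaffolds and adaptors were lower. Of these 8 genes, the call of Map3k7 was lost without the mouse labelled WT 1 (-0.20, adjusted p = 0.101) and the others were called there too. Fits that left out other mice or libraries are not given for the genes of these pathway lists.

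Across the 24 libraries, the pattern of log2 CPM most like that of Dusp6 among 9228 other genes was that of Spred1 (Pearson r 0.987), followed by Aen (0.983) and Gramd1b (0.982). For Dusp1 the closest were Tnfaip3 (0.991), Traf1 and Dgat1 (0.989 each), for Dusp10 Ifnar1 (0.991), Vps37b (0.990) and Zc3hav1 (0.988), and for Dusp5 H2-K1 (0.960), Cables1 (0.954) and Aebp2 (0.950). The closest to Dusp2 were Ndfip1 (0.914), Rheb (0.895) and Rgcc (0.885), to Dusp4 Luzp1 (0.862), Sema4c (0.829) and Mapkapk2 (0.815), and to Dusp7 Trub1 (0.954), Cnn3 (0.938) and Mettl9 (0.936). Dusp14 was closest to Stk32c (0.954), Dynlt3 (0.943) and Hopx (0.935), and Dusp16 to Il2rb (0.949), Adam9 (0.942) and Ipmk (0.939). Among the members themselves Dusp1 and Dusp10 were the most alike (r 0.978) and Dusp5 and Dusp7 the most opposed (r -0.852). These coefficients describe 24 libraries from 6 mice that share 4 times of stimulation, and genes with any common time course score high on them.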

How the data were processed

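RNA from enriched splenic CD4+ T cells was made into stranded mRNA libraries and sequenced on an Illumina HiSeq2500. For the deposited table the authors mapped reads to GRCm38 with STAR and gave raw counts per gene (Ensembl identifiers, 24 columns), which are not normalised; the STAR version and the use of strand in counting were not given in the sources used here, and the submitters' processing notes also name edgeR and DESeq2. Identifiers were matched to symbols with GENCODE annotation of the same build (54409 of 54446), and every column was matched to a library by its name.

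From these deposited counts, edgeR 4.0.16 in R 4.3.3 kept 15325 genes (filterByExpr, minimum count 10), scaled by TMM and fitted a quasi-likelihood model with 1 term for each of the 8 groups over all 24 libraries; p-values were Benjamini-Hochberg adjusted over all genes tested in each contrast. The biological coefficient of variation was 18.6%. Log2 CPM used a prior count of 2. SE is the log2 fold change divided by the root of its F. Totals of 19715161 to 21627018 counts put the lowest member count at 58. The fit was run on simulated counts before use, with no outcome given here. Those libraries were drawn independently, so the shared deviation of libraries from 1 mouse was not simulated. Alternatives were DESeq2 1.42.0, limma-voom (limma 3.58.1), RLE factors, library totals, no filter, a mean of at least 1 CPM, only the libraries compared, a block for the mouse or for the replicate number, and each library or mouse left out. The members, pathway lists and tests were chosen with earlier results of these data known. From each pathway list, up to 3 genes with the largest change at 6 h in WT cells among those called with at least 5 CPM were named, and those called between the genotypes at 6 h were added after their values were seen.

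The mouse numbers pair libraries: those of 1 mouse deviated together from their group means (r 0.139 to 0.567 over 36 pairs), while those with the same number but the other genotype did not consistently (r -0.165 to 0.300 over 32 pairs). The labels give the mouse, and values fitted with the mouse as a block stand beside a result where they change its call. Nothing in the sources used here says that the mice came from separate litters or days.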

Additional observations from a re-analysis of the deposited data

How the results depend on the processing

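The stimulation calls of Dusp1, Dusp6 and Dusp10 against 0 h kept their direction and their side of the threshold under every alternative and omission. Counts of called members that moved by 1.5 times or more follow, and the cause was not tested. Shares of all genes called under the same settings are not given, so these moves cannot be read as particular to the members. With each mouse as a replicate block, WT cells had 6 members called at 3 h in place of 4 and 6 from 3 to 6 h in place of 3, Aim2-/- cells 7 in place of 4, and the interaction at 6 h 2 in place of 0; the replicate number as a block, which pairs mice of different genotypes that share only a number, gave 6 in WT cells at 3 h, 7 in Aim2-/- cells from 3 to 6 h, 6, 3 and 2 between the genotypes at 0, 3 and 24 h in place of 0, and 2 in the interaction at 6 h. Without a filter on low counts the genotype counts at 0, 3 and 24 h were 5, 2 and 1, the interaction counts at 6 and 24 h 2 and 1, and the count over summed mice 2, all in place of 0. DESeq2 gave 6 in Aim2-/- cells from 3 to 6 h in place of 4, 3 between the genotypes at 0 h, 1 in the interaction at 6 h and 4 over summed mice, limma-voom 3 at 0 h and a mean of at least 1 CPM 1 at 0 h, in place of 0. With only the libraries compared, 2 in place of 3 were called between the genotypes at 6 h.

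Leaving out 1 library or mouse moved the counts over 2 to 4 for Aim2-/- cells from 3 to 6 h, 0 to 5 between the genotypes at 0 h, 0 to 1 at 3 h, 0 to 3 at 6 h, where it was 0 without mouse WT 3 or WT 4 or the 6 h library of Aim2-/- 1, WT 3 or WT 4, and 0 to 3 over summed mice. The log2 fold change of Dusp14 from 3 to 6 h in WT cells ran from -1.17 to 0.077 over these omissions, positive without the 3 h library of the mouse labelled WT 1. Counts of 9 members with 3 mice a group limit what any of these counts can show.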
